A study of Mus musculus with 4 samples.

Results

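The genes described here encode the extracellular matrix of the brain, the integrin receptors that bind it and the proteases that cut it. They were taken from the deposited peak table by symbol: every row whose gene name began as a collagen chain (Col), a laminin chain (Lama, Lamb or Lamc), an integrin subunit (Itga or Itgb), an Adamts protease or a numbered matrix metalloproteinase (Mmp). The rule used no measured value, and it gave 148 of the 33977 peaks and 64 of the 10415 genes in the table. Collagens made up 57 peaks of 27 genes, laminins 9 peaks of 7 genes, integrins 29 peaks of 11 genes and proteases 50 peaks of 17 genes. The proteases were 21 peaks of 10 Adamts genes, 27 peaks of 6 Mmp genes and 2 peaks of Adamtsl1, an Adamts-like gene whose protein lacks the protease domain. The other 3 peaks belonged to Col4a3bp, which encodes a ceramide transfer protein, and Itgb1bp2, which encodes a muscle protein that binds an integrin tail. These 2 genes match by name only and were kept out of the classes.

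The series measured m6A (N6-methyladenosine, the commonest internal modification of messenger RNA) by sequencing RNA pulled down with an anti-m6A antibody. There were 2 libraries from mice after repetitive mild traumatic brain injury (rmTBI; the labels say TBI) and 2 from mice after sham treatment, all from cortex and all with the antibody. Strain, sex, age, injury protocol, the interval from injury and how many mice stand behind a library are not stated in the labels. Within a group the labels call the libraries 0 and 1. They do not tell if the RNA of each came from its own mice, so p-values speak of the spread between these 4 libraries alone, which may be technical. No library without the antibody was analysed here. A difference in counts at a peak therefore does not separate methylation from the amount of RNA, and in bulk cortex fewer cells of a type and less RNA per cell cannot be told apart.

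Collagens are triple-helical chains that form fibrils, sheets or beaded filaments, and laminins are trimers that lay down the basement membrane around brain vessels and beneath the meninges. Integrins are paired alpha and beta subunits that tie cells to these proteins. Adamts proteases cut procollagens and the large proteoglycans of the brain matrix, and matrix metalloproteinases cut collagens and other matrix and cell-surface proteins. Adult cortex holds little fibrillar collagen outside its vessels and meninges.

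RefSeq (GRCm38.p6) lists 133 protein-coding genes that match the naming rule, and 63 of them had a peak. By class, 27 of 44 collagens, 7 of 11 laminins, 11 of 28 integrins, 10 of 19 Adamts genes, 1 of 5 Adamts-like genes and 6 of 21 Mmp genes had a peak. The integrin count takes in the integrin-like gene Itgbl1. The Mmp count leaves out Mmp1a and Mmp1b, which had no peak. They were among 5 genes outside the classes, of which 1 had a peak. Genes without a row in the table used here included Col1a1 and Col3a1, Lama2 and Lama5, Itgav and Itgb3, and Mmp2 and Mmp9.

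The peaks lay at a median of 36 and 70 counts in rmTBI libraries 0 and 1, against 41 and 90.5 counts in sham libraries 0 and 1. Over all peaks of the table the medians were 98 and 214 in rmTBI and 108 and 209 in sham, so these genes were measured with fewer reads than most. Library totals over the peaks were 13753600 and 26888072 counts in rmTBI, against 14437317 and 26356562 counts in sham. The authors placed 74 of the 148 peaks in 3′ UTRs, where 39.7% of all peaks lay. They placed 67 (45.3%, against 50.4% of all peaks) in coding sequence and 7 (4.73%, against 6.24%) in 5′ UTRs. The classes differed: 26 of the 29 integrin peaks were in 3′ UTRs, while 40 of the 57 collagen peaks and 7 of the 9 laminin peaks were in coding sequence. A peak's span runs from its start to its end and takes in introns, up to 72651 bases for Col19a1, so levels are not compared between genes. Peaks were called in rmTBI (73 peaks) and in sham (75 peaks) apart and stacked, and 76 of the 148 (51.4%) overlapped a peak of the other set on their strand, against 67.4% of all peaks. The 148 rows formed 109 overlap clusters, and rows of a cluster count some of the same reads.

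Peak sequences could not be read here, but RefSeq's promoter table holds the first 50 transcribed bases of 45 of the 64 genes, and 3 peaks reached into them. They are shown because 2 of them, in the membrane proteases Mmp14 and Mmp15, are 5′ UTR peaks in the authors' deposited lists described further on. The remaining run belongs to Itga3, a laminin receptor. Each run starts at the first transcribed base inside the peak, and capitals mark a DRACH motif, the usual sequence around m6A (A, G or T, then A or G, then A, then C, then A, C or T), searched on the transcribed strand only.
Mmp14, chr14:54431611-54431640, plus strand: ggagGGACCaaaggagagcagagagggctt
Mmp15, chr8:95352296-95352325, plus strand: ggggacgccgggcgctggctagctggctgg
Itga3, chr11:95076665-95076688, minus strand: agggcttgccgttctaaatcctcc
The Mmp14 run held 1 motif and the other runs held 0. Over 32851 promoter windows of the same table, 54.4% had the motif somewhere in the first 50 transcribed bases, so a match in such a window was common. The printed runs are shorter than 50 bases, so that share is not a rate for the runs themselves.

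No peak of these genes passed the test of rmTBI against sham. After the filter on low counts, 142 of the 148 peaks, in 63 genes, were tested. The quasi-likelihood test of edgeR, adjusted by Benjamini-Hochberg over all 33415 tested peaks, called 0 of the 142, and 29 of all peaks (0.0868%). The lowest adjusted p among the 142 was 0.387, for Col6a1. At an unadjusted p under 0.05, 6 peaks of 4 genes were higher in rmTBI (4.23% of the 142, against 0.730% of all peaks) and 11 peaks of 7 genes were lower (7.75%, against 2.11%). Both rmTBI libraries lay above both sham libraries at 26 peaks (18.3%, against 12.3% of all peaks) and below them at 40 (28.2%, against 12.3%). The log2 fold change, rmTBI over sham, was above 0 at 71 peaks and below 0 at 71, with a median of 0.00, against 0.02 over all peaks. The median size of the log2 change was 0.46 at these peaks, against 0.17 over all peaks, and the lower counts at these genes are given above. Whether depth accounts for the wider spread was not tested. The 6 peaks that were not tested had few counts. They were 1 peak each of Adamts15, Col23a1, Col24a1, Col27a1 and Col8a2, and the sole peak of Col6a5, with 0 and 17 counts in rmTBI and 6 and 12 counts in sham.

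**Figure D1:**
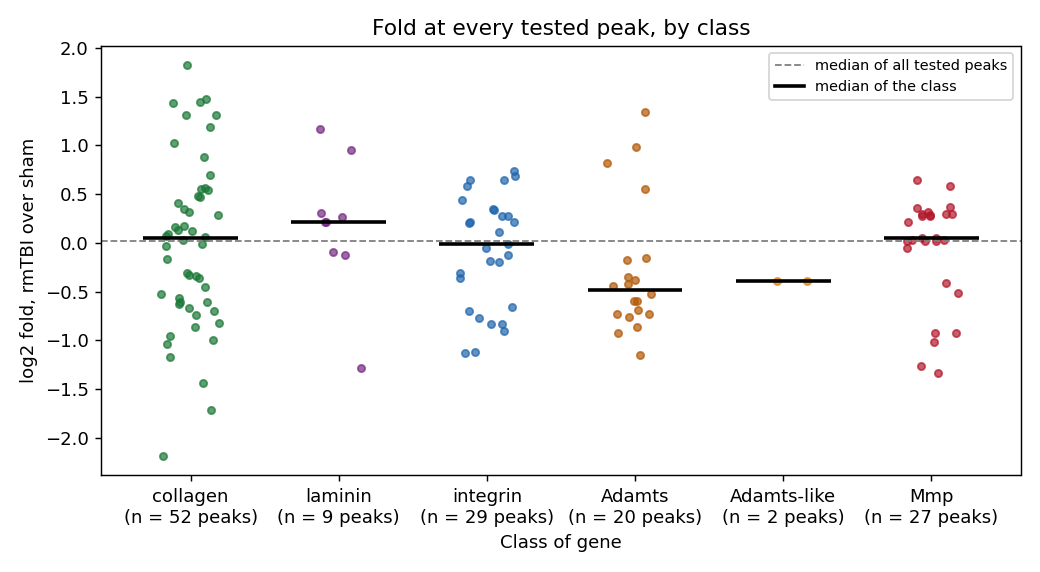
Log2 fold change (rmTBI over sham, y axis) at each tested peak, by class of gene (x axis); each point is 1 peak, the black bar is the class median and the dashed line the median of all tested peaks. Collagens run from -2.18 to 1.82 around a median of 0.04, and 16 of the 20 Adamts peaks lie below 0.

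The collagen VI genes lay higher in rmTBI. Col6a1, Col6a2 and Col6a3 encode the chains that assemble into the beaded filaments around vessels and in connective tissue. At all 9 of their tested peaks both rmTBI libraries lay above both sham libraries, as they did at 12.3% of all peaks. The peaks of each gene fell in 2 overlap clusters, and rows of a cluster count some of the same reads. None of the 9 peaks passed the adjusted threshold. At the Col6a1 coding peak chr10:76718078-76721265, minus strand, the level was 28.4 and 24.8 TMM-scaled CPM (read counts scaled to library size) in rmTBI libraries 0 and 1, against 11.98 and 11.3 CPM in sham libraries 0 and 1. The groups did not overlap, and the libraries of a group lay close together. The log2 fold change was 1.19 (SE 0.25, edgeR unadjusted p = 0.00165, Benjamini-Hochberg adjusted p = 0.387), and it was 1.24 between the 2 libraries numbered 0 and 1.12 between the 2 numbered 1. A Col6a1 peak of the rmTBI set that overlaps it (chr10:76716778-76719625) had 41.7 and 36.1 CPM in rmTBI, against 20.8 and 17.6 CPM in sham (log2 1.02, SE 0.26). The remaining Col6a1 peaks stood at 0.89 (SE 0.28) and 0.56 (SE 0.30).

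Col6a2 lies beside Col6a1 on chromosome 10, with 85161 bases between their spans, on the same strand. Its coding peak chr10:76611178-76614352 had 17.7 and 11.5 CPM in rmTBI, against 9.84 and 8.23 CPM in sham. The rmTBI libraries were spread more widely than at Col6a1, and the log2 change was 0.69 (SE 0.30, unadjusted p = 0.0520, edgeR). The other Col6a2 peaks stood at 0.56 and 0.47. For Col6a3, on chromosome 1, counts were low: its coding peak chr1:90785737-90786687 had 1.59 and 1.80 CPM in rmTBI, against 0.428 and 0.878 CPM in sham, which was 21 and 50 counts against 6 and 24. Its log2 change was 1.31 (SE 0.58). The alternative chain gene Col6a4 ran the other way, with 1.44 and 0.720 CPM in rmTBI, against 2.28 and 1.90 CPM in sham (log2 -1.0, SE 0.52).

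Because Col6a1 and Col6a2 lay higher together and neighbour each other, the 250 bases before their RefSeq start sites are shown (GRCm38.p6, both on the minus strand, printed 5′ to 3′). Capitals mark a GC box, GGGCGG or its reverse complement CCGCCC.
Col6a1, chr10:76726045-76726294: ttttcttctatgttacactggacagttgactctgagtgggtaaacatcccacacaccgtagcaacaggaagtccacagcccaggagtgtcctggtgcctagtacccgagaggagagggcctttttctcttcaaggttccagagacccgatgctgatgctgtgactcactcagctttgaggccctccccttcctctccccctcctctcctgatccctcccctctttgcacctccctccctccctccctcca
Col6a2, chr10:76623631-76623880: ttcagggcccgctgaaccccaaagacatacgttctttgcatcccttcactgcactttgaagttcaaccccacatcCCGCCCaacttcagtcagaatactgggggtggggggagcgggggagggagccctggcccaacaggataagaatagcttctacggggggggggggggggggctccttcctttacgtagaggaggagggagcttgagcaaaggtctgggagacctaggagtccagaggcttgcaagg
Col6a2 had 1 GC box and Col6a1 had 0, where 32.7% of all 32851 windows of the same 250 bases hold at least 1. Neither held TATAAA or its reverse complement TTTATA, which 12.4% of windows do. G and C made up 56% of the Col6a1 bases and 59.2% of the Col6a2 bases, with a median of 52.4% over all windows. Col6a3, which also lay higher, is on chromosome 1. Its window held 0 GC boxes and 0 TATAAA motifs, with 57.2% G and C. Whether these sequences bear on the values was not tested.

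The fibrillar collagens, which form the tensile fibres of connective tissue, had few counts. Col1a2, the alpha 2 chain of type I collagen, had 0.834 and 2.16 CPM in rmTBI, against 0.428 and 0.439 CPM in sham, at a 3′ UTR peak with 11 and 60 counts in rmTBI and 6 and 12 counts in sham. Both rmTBI libraries lay above sham, and most of the difference came from rmTBI library 1. Its log2 change was 1.82 (SE 0.68, unadjusted p = 0.0302, edgeR). Col5a1, which encodes a chain of type V collagen that controls fibril width and is named here after its values were seen, stood at 1.44, 1.44 and 1.31 at its 3 peaks. Its 3′ UTR peak with the smallest p-value had 1.97 and 1.91 CPM in rmTBI, against 0.356 and 0.988 CPM in sham (SE 0.59). The other fibrillar genes had medians from -1.44 (Col27a1) to 0.48 (Col5a2), and over all 14 fibrillar peaks the median was 0.10. At an unadjusted p under 0.05, 2 of the 14 were higher (14.3%, against 0.730% of all peaks) and 0 lower (against 2.11%).

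Several collagens outside these families were lower in both rmTBI libraries. Col9a3, a chain of type IX collagen that sits on the surface of fibrils, had 1.90 and 1.87 CPM in rmTBI, against 5.28 and 3.33 CPM in sham (log2 -1.17, SE 0.37, unadjusted p = 0.0136, edgeR). Its partner Col9a2 did not share the direction, at 0.34 and 0.32. Col8a2, a short-chain collagen of specialised basement membranes, had 0.531 and 0.504 CPM in rmTBI, against 1.57 and 1.83 CPM in sham (log2 -1.72, SE 0.56, unadjusted p = 0.0159, edgeR), and its partner chain Col8a1 stood at -1.04 (SE 0.56). Both type VIII genes lay near the lower limit of detection, with 7 and 14 counts in rmTBI and 22 and 50 counts in sham at the Col8a2 peak.

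Col25a1 encodes a transmembrane collagen made by neurons, whose shed ectodomain is known from amyloid plaques. All 7 of its peaks, in 5 overlap clusters, were below 0, from -2.18 to -0.57. The coding peak chr3:130479004-130546361 had 42.1 and 25.4 CPM in rmTBI, against 70.4 and 38.7 CPM in sham. Libraries numbered 0 were the higher ones in both groups, so the groups overlapped, and the log2 change was -0.69 (SE 0.37), with -0.74 within number 0 and -0.61 within number 1. With 1 library left out it ran from -1.11 without rmTBI library 0 to -0.21 without sham library 0. At a 3′ UTR peak (chr3:130596021-130596261) the groups did not overlap, with 3.56 and 3.31 CPM in rmTBI, against 5.56 and 5.34 CPM in sham (log2 -0.67, SE 0.28, unadjusted p = 0.0452, edgeR).

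Col4a1 and Col4a2, the chains of the collagen that forms the sheet of brain capillary basement membranes, showed values near 0. Col4a1 had 20.6 and 11.6 CPM in rmTBI, against 18.8 and 12.8 CPM in sham (log2 0.03, SE 0.35). Col4a2, which is read from the opposite strand and whose span overlaps that of Col4a1 by 85 bases, had 7.43 and 5.29 CPM in rmTBI, against 7.91 and 5.08 CPM in sham (log2 -0.03, SE 0.33). In both genes the libraries of a group differed more from each other than the groups did.

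Over all 52 tested collagen peaks the median log2 change was 0.04 (-0.06 within number 0, 0.07 within number 1). At an unadjusted p under 0.05, 5 peaks of 3 genes were higher (9.62%, against 0.730% of all peaks). At the same threshold 4 peaks of 3 genes were lower (7.69%, against 2.11%). The beaded filament peaks (10 tested, collagen VI family) had a median of 0.79, the transmembrane peaks (11) -0.61, the fibril-associated peaks (11) 0.09 and the short-chain peaks (2) -1.38. Col19a1, a fibril-associated collagen made by some neurons and named here after its values were seen, stood between 0.06 and 0.17 at its 4 coding peaks. At its 3′ UTR peak Col19a1 had 0.303 and 0.576 CPM in rmTBI, against 1.14 and 0.695 CPM in sham, from 4 and 16 counts against 16 and 19 (log2 -0.95, SE 0.73).

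**Figure D2:**
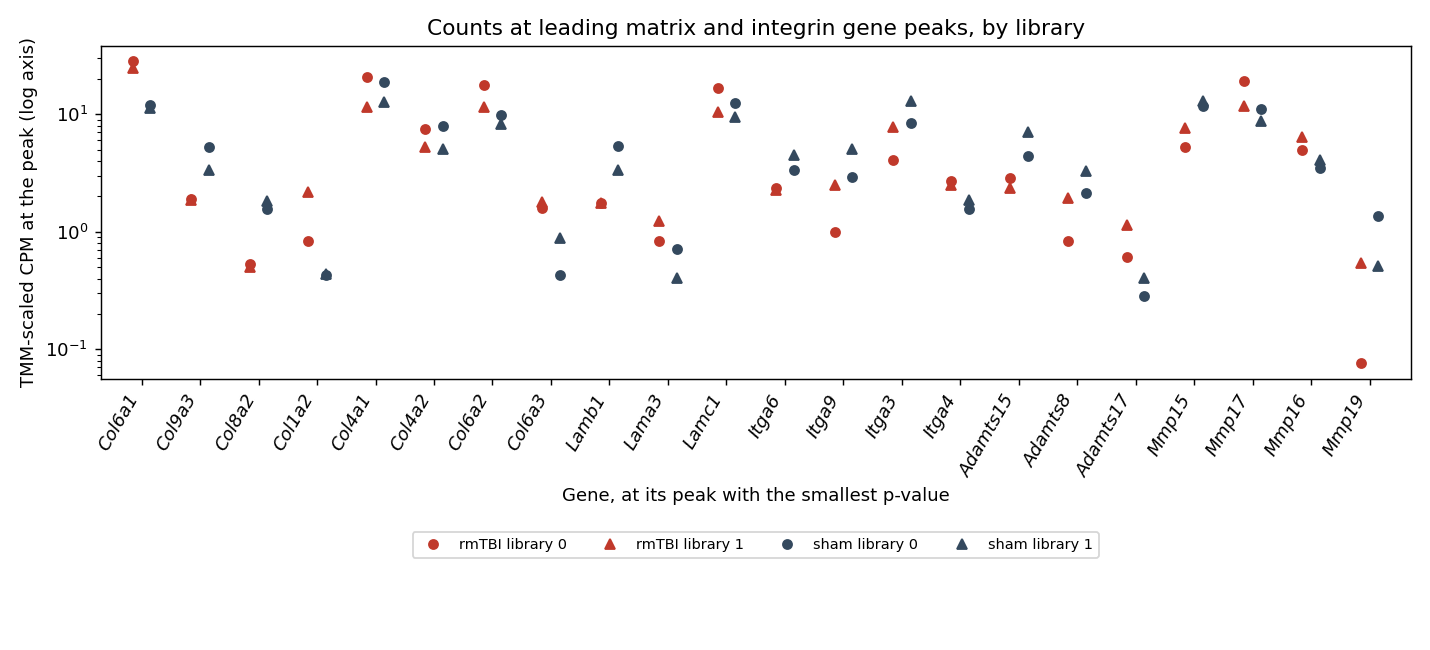
Level in TMM-scaled CPM (y axis, log scale) in each of the 4 libraries, at 1 peak of genes named for their p-value in a class or as a subunit partner (x axis); red marks are rmTBI and dark marks sham, circles library 0 and triangles library 1. Both Col6a1 values in rmTBI (28.4 and 24.8) lie above both sham values, and both Mmp15 values (5.31 and 7.63) lie below both sham values.

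Among the laminins, Lamb1 was lower in both rmTBI libraries, and no laminin peak passed the adjusted threshold. Lamb1 encodes the beta 1 chain found in most early and vascular basement membranes. Its coding peak chr12:31318466-31319931 had 1.74 and 1.76 CPM in rmTBI, against 5.35 and 3.33 CPM in sham (log2 -1.29, SE 0.37, edgeR unadjusted p = 0.00952, Benjamini-Hochberg adjusted p = 0.967). Lamc1, the gamma 1 chain that pairs with it, had peaks on both sides of 0, each within 1 SE of it. Its 2 overlapping peaks stood at -0.10 and -0.12 and the peak apart from them at 0.31 (SE 0.31), where it had 16.6 and 10.5 CPM in rmTBI, against 12.5 and 9.40 CPM in sham, and the groups overlapped. Lama3, an alpha chain of epithelial laminins, had few counts, with 0.834 and 1.22 CPM in rmTBI, against 0.713 and 0.402 CPM in sham (log2 0.96, SE 0.67), and Lamb3 stood at 0.26 (SE 0.77). Lamb2 and Lama4, the chains of synaptic and endothelial laminins, stood at 0.22 and 0.21. The laminin median over 9 peaks was 0.22, but it was -0.29 within number 0 and 0.16 within number 1. The sign was the same in both numbers at 5 of the 9 peaks, against 60.4% of all peaks.

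Integrin peaks had a median of -0.01 over 29 peaks, and 0 passed an unadjusted p of 0.05 in either direction. Over all peaks 0.730% passed it as higher and 2.11% as lower. The peaks of the laminin receptors lay mostly below 0, at 7 of 8, with a median of -0.68. They came from only 2 genes and formed 5 overlap clusters, whose rows count some of the same reads. Itga6, the alpha 6 subunit, had 2.35 and 2.27 CPM in rmTBI, against 3.35 and 4.46 CPM in sham, at a 3′ UTR peak (log2 -0.77, SE 0.33). Its second 3′ UTR peak stood at -0.36 and the one downstream, with 6 and 16 counts in rmTBI and 3 and 14 in sham, at 0.44. Itga3, the alpha 3 subunit, had 4.09 and 7.77 CPM in rmTBI, against 8.41 and 12.9 CPM in sham, at its 3′ UTR peak chr11:95044742-95045160 (log2 -0.83, SE 0.37). The library 1 value was the higher one in each group, and both rmTBI values lay below both sham values. At its 5′ UTR peak, whose first bases are printed above, Itga3 stood at -0.13 (SE 0.37), with 3.41 and 2.41 CPM in rmTBI, against 2.50 and 3.69 CPM in sham.

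The related subunits Itga4 and Itga9, which bind vascular cell adhesion molecule and share sequence, stood on opposite sides of 0. Itga9, a receptor for tenascin, had 0.986 and 2.52 CPM in rmTBI, against 2.92 and 5.01 CPM in sham (log2 -1.13, SE 0.49), and an almost identical overlapping row repeats this value. It was -2.02 without rmTBI library 1, -0.69 without rmTBI library 0 and -0.68 without sham library 1. Itga4, a subunit of a leukocyte receptor, was above 0 at all 6 of its peaks, in 4 overlap clusters, from 0.34 to 0.74. At its 3′ UTR peak with the smallest p-value it had 2.73 and 2.48 CPM in rmTBI, against 1.57 and 1.87 CPM in sham (log2 0.58, SE 0.38). No difference between the values of Itga4 and Itga9 was tested.

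Itgb1, the beta subunit shared by most of these receptors, had 40.9 and 25.6 CPM in rmTBI, against 32.2 and 22.9 CPM in sham (log2 0.27, SE 0.32), with overlapping groups. The remaining subunits, chosen after their values were seen, are given by their range. Itgb5 stood between 0.11 and 0.21, Itgb8, which activates latent TGF-beta in the brain, between -0.30 and -0.18, Itga1, a collagen receptor, at 0.27, and Itga8 at 0.20 and 0.64. Itgam, the alpha subunit of the microglial and macrophage complement receptor, stood at -0.05 (SE 0.46), with 1.44 and 1.58 CPM in rmTBI, against 1.78 and 1.39 CPM in sham.

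**Figure D3:**
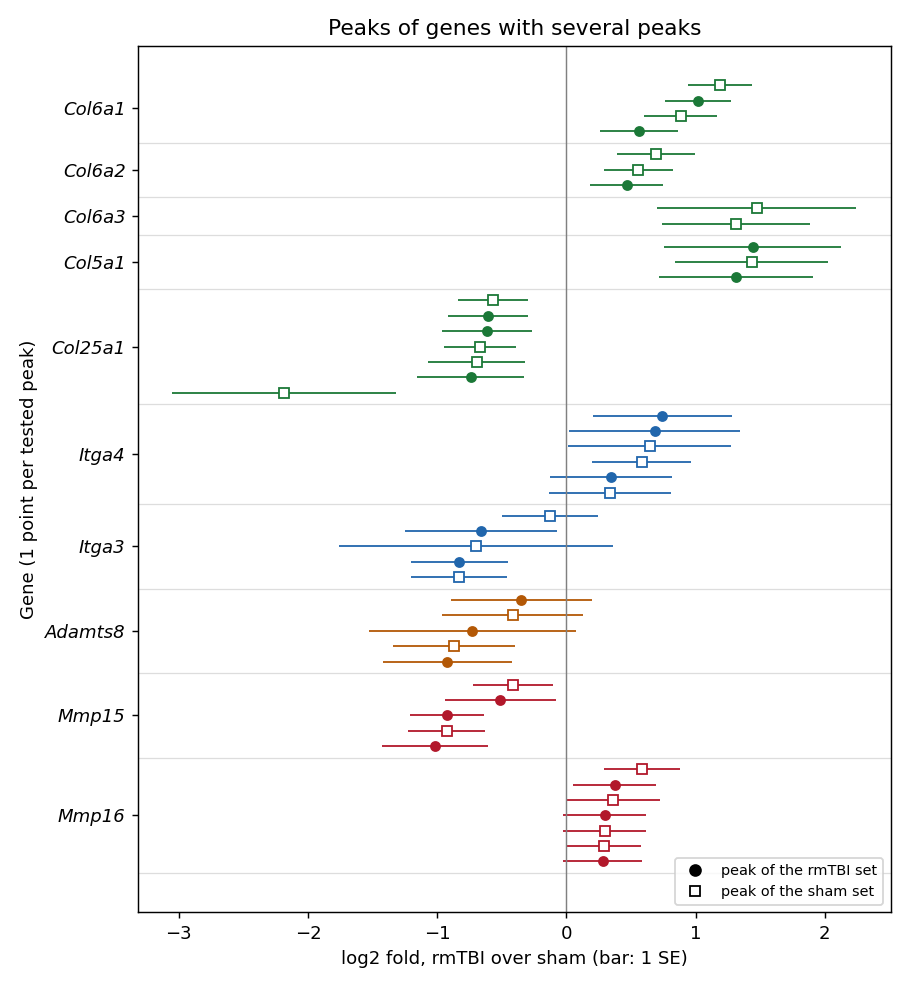
Log2 fold change (rmTBI over sham, x axis) with 1 SE at each tested peak of 10 genes with several peaks (y axis), chosen for display after their values were seen; filled circles are peaks of the rmTBI set and open squares peaks of the sham set. All 7 Col25a1 peaks lie below 0 and all 4 Col6a1 peaks above it, and overlapping peaks of a gene share reads.

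Most Adamts protease peaks lay lower in rmTBI, without any call. Of 20 tested peaks, 16 were below 0, with a median of -0.48 (-0.43 within number 0 and -0.42 within number 1). Both rmTBI libraries lay below both sham libraries at 11 peaks (55%, against 12.3% of all peaks) and above them at 1 (5%, against 12.3%). The sign was the same within both numbers at 19 of the 20 peaks, against 60.4% of all peaks. The 20 peaks formed 14 overlap clusters, and rows of a cluster count some of the same reads. The hyalectanases, which cut aggrecan, brevican and versican, made up 13 of these peaks, with 12 below 0 and a median of -0.60. They came from 5 genes and formed 9 overlap clusters.

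Adamts15, a hyalectanase, had 2.88 and 2.37 CPM in rmTBI, against 4.42 and 7.06 CPM in sham, at a 3′ UTR peak (log2 -1.15, SE 0.34, unadjusted p = 0.0106, edgeR). Adamts8, which neighbours it on chromosome 9, was below 0 at all 5 of its peaks, in 3 overlap clusters, from -0.92 to -0.35. Its coding peak with the smallest p-value had 0.834 and 1.94 CPM in rmTBI, against 2.14 and 3.29 CPM in sham. Adamts4, the aggrecanase of oligodendrocytes among other cells, had at its 3′ UTR 7.96 and 5.14 CPM in rmTBI, against 10.1 and 8.71 CPM in sham (log2 -0.53, SE 0.30).

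Adamts2 and Adamts3, which remove the amino-terminal propeptide of procollagens, stood at -0.73, -0.44 and -0.38 over their 3 peaks (named here after their values were seen). Adamts17, known for its role in fibrillin microfibrils, was higher, with 0.606 and 1.15 CPM in rmTBI, against 0.285 and 0.402 CPM in sham, from 8 and 32 counts against 4 and 11 (log2 1.35, SE 0.75). Adamts5, the other main aggrecanase, had peaks on both sides, at -0.76 in its 3′ UTR and 0.82 in its coding sequence. Adamtsl1 stood at -0.39 (SE 0.29), with 3.11 and 3.74 CPM in rmTBI, against 4.49 and 4.57 CPM in sham, inside the span of the lncRNA gene Gm33730.

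Of the 6 matrix metalloproteinases with peaks, 5 are membrane-bound, and the median over 27 peaks was 0.05. Mmp15, a transmembrane member, lay lower at all 5 of its peaks, in 3 overlap clusters whose rows count some of the same reads. Its coding peak chr8:95372124-95372453 had 5.31 and 7.63 CPM in rmTBI, against 11.7 and 13.1 CPM in sham (log2 -0.92, SE 0.28, unadjusted p = 0.0125, edgeR). Its 5′ UTR peak, whose first transcribed bases are printed above, had 1.52 and 3.53 CPM in rmTBI, against 5.70 and 4.94 CPM in sham (log2 -1.02, SE 0.41). The fold there was -1.85 within number 0 and -0.47 within number 1.

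Mmp16, a transmembrane member expressed in neurons, lay above 0 at all 7 of its peaks, in 3 overlap clusters, from 0.28 to 0.59. At the coding peak with the smallest p-value it had 4.93 and 6.40 CPM in rmTBI, against 3.49 and 4.06 CPM in sham (log2 0.59, SE 0.29), and at its 3′ UTR peak with most counts it had 24.2 and 39.7 CPM in rmTBI, against 20.7 and 28.6 CPM in sham, where the groups overlapped. Mmp17, which is held in the membrane by a lipid anchor, had 19.0 and 11.8 CPM in rmTBI, against 10.98 and 8.78 CPM in sham, at a 3′ UTR peak (log2 0.64, SE 0.31). Mmp14, the collagenase that activates a secreted gelatinase, stood between -0.06 and 0.28, and Mmp24, a member of the nervous system, between 0.02 and 0.32. Mmp19, the sole secreted member measured, stood at -1.34 and -1.26 with 1 and 15 counts in rmTBI, against 19 and 14 counts in sham, at the first of these. Its fold was -3.07 within number 0 and 0.06 within number 1, so it rested on the libraries numbered 0.

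Mmp19 and Mmp24 each had rows on both strands at the same place with nearly the same counts: at Mmp24 the plus row held 288 and 713 counts in rmTBI and 309 and 668 in sham, and the minus row 268 and 692 in rmTBI and 294 and 650 in sham. The minus rows lie over Tmem198b at Mmp19 and over BC029722 at Mmp24. No source used here says whether the counting used strand, and reads of the overlapping genes cannot be told apart. In all, 14 peaks of 8 of these genes lay within the span of another RefSeq gene.

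**Figure D4:**
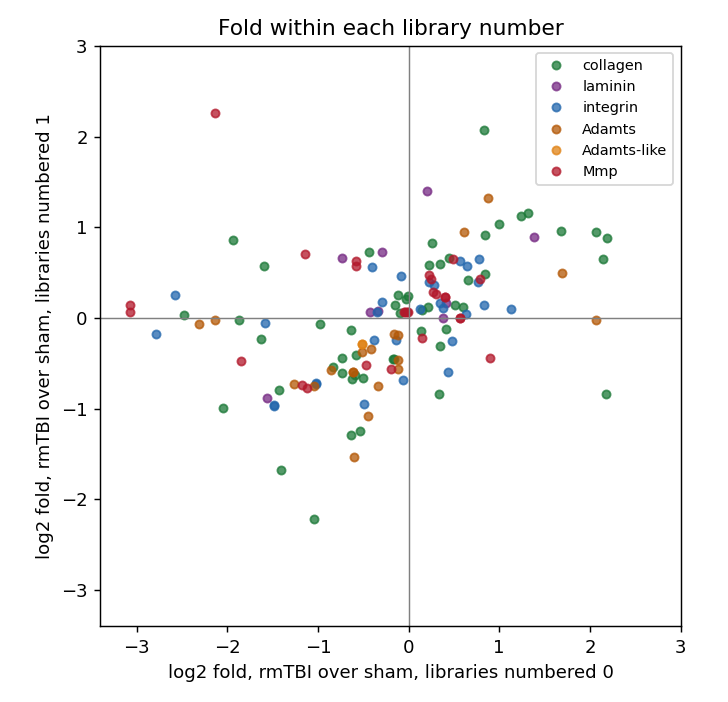
Log2 fold change, rmTBI over sham, within the libraries numbered 0 (x axis) and within those numbered 1 (y axis), 1 point per tested peak, coloured by class. Points in the upper right and lower left have the same sign in both, as 38 of 52 collagen peaks, 19 of 20 Adamts peaks and 13 of 27 Mmp peaks do. Over all tested peaks the share is 60.4%.

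The 2 libraries of a group differed at these genes by where the peak lay. The ratio of library 1 to library 0, in TMM-scaled CPM, had a median log2 of 0.33 in rmTBI and 0.23 in sham over 72 peaks in 3′ UTRs. Over 36 coding peaks with spans above 1000 bases it was -0.20 in rmTBI and -0.43 in sham. The same order held over all peaks of the table, with 0.19 and 0.14 in 3′ UTRs and -0.33 and -0.31 over long coding spans. Col25a1, Col4a1 and Col6a2, with long coding spans, were higher in library 0 of both groups, while Itga3 and Itga9, read in their 3′ UTRs, were higher in library 1 of both. Of the 142 tested peaks, 102 had a fold of the same sign within both numbers (60.4% of all peaks did). No source used here says what the numbers stand for.

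The authors' deposited lists of differing peaks held 7 peaks of these genes, 6 higher and 1 lower, where 0.815% of all peaks were in the higher list and 0.430% in the lower. The contrast behind the deposited log2 values is not stated. Over the 148 peaks the deposited value lay within 0.3 of the log2 ratio of library 1 to library 0 in rmTBI minus the same in sham at 138 (across peaks, which share libraries and reads, Pearson r = 0.99, given as a description), so its sign is not that of rmTBI against sham. The largest of these values was that of a Mmp17 3′ UTR peak, at 6.06 in the authors' deposited table (p = 0.0197 there), where the counts were 2 and 20 in rmTBI and 14 and 2 in sham. Itga5, the fibronectin receptor subunit, stood at 3.23 in the authors' deposited table with 4 and 37 counts in rmTBI and 32 and 30 in sham, and Col24a1 at 3.16 with 2 and 27 in rmTBI and 18 and 26 in sham. Adamts5 was listed at 2.88 with 2 and 29 counts in rmTBI and 16 and 30 in sham in the authors' deposited table. At each of these 4 peaks rmTBI library 0 was the lower of the rmTBI libraries.

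The Mmp15 5′ UTR peak described above was listed higher, at 1.47, in the authors' deposited table, although both rmTBI libraries lay below both sham libraries, with 20 and 98 counts in rmTBI and 80 and 135 in sham. Mmp24 was listed at 1.27 for a coding peak with 57 and 177 counts in rmTBI and 91 and 112 in sham in the authors' deposited table. Mmp14 was listed lower, at -1.33, for its 5′ UTR peak with 64 and 133 counts in rmTBI and 36 and 179 in sham, and its log2 change of rmTBI over sham was 0.05 (SE 0.43). The deposited adjusted p of all 7 was 0.998, and their log2 changes of rmTBI over sham ran from -1.02 to 0.05.

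**Figure D5:**
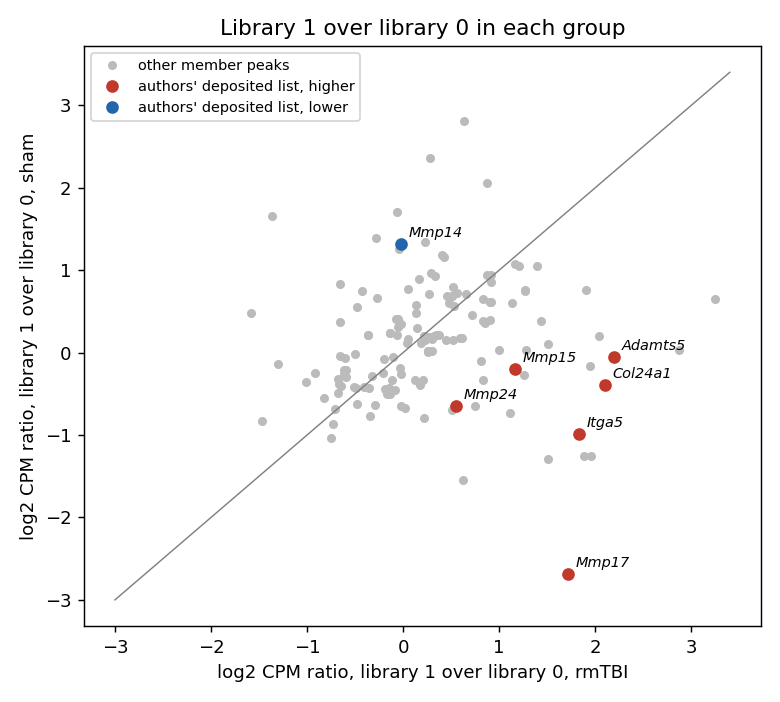
Log2 ratio of CPM in library 1 to library 0 in rmTBI (x axis) and in sham (y axis) at each peak of these genes; coloured points are the 7 peaks in the authors' deposited lists and the line marks equal ratios. The 6 peaks listed higher lie to the right of the line, with the Mmp17 peak farthest from it, and the Mmp14 peak listed lower lies to its left.

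Genes that work with these were read from lists of the pathway's other parts, and 0 of their peaks were called. Over fibroblast matrix and elastic fibre genes, 9 of 20 listed had a peak, and 18 of 23 tested peaks were above 0, with a median log2 change of 0.58. Both rmTBI libraries lay above both sham libraries at 10 of the 23 (43.5%, against 12.3% of all peaks) and below at 0 (against 12.3%). The 23 peaks formed 15 overlap clusters, and rows of a cluster count some of the same reads. Fbln2, a fibulin of basement membranes and elastic fibres, had 3.03 and 3.42 CPM in rmTBI, against 1.43 and 1.83 CPM in sham (log2 0.97, SE 0.37, unadjusted p = 0.0312, edgeR), and Ltbp1, which holds latent TGF-beta in the matrix, stood at 0.71 (SE 0.32). The list of proteoglycan and perineuronal net genes held the hyalectanase substrates aggrecan, brevican and versican beside other genes, such as those of link proteins and tenascins. Its median was 0.09 over 76 peaks. At an unadjusted p under 0.05, 0 of the 76 were higher (against 0.730% of all peaks) and 1 lower (1.32%, against 2.11%). The lower one was Hapln2, the link protein of white matter nodes, with 2.65 and 2.12 CPM in rmTBI, against 5.49 and 6.40 CPM in sham (log2 -1.34, SE 0.30, edgeR Benjamini-Hochberg adjusted p = 0.487). Tnr, the tenascin of perineuronal nets, stood at 0.53 (SE 0.28), and at 0.27 at its peak with the highest level.

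The linkers of the basement membrane had a median of 0.07 over 12 peaks, with Nid1, which bridges laminin and collagen IV, at 0.47 (SE 0.29) and Sparc, a collagen-binding protein, at -0.43 (SE 0.33). Enzymes that fold and cross-link collagen stood at -0.08 over 7 peaks, with P4ha1, a prolyl hydroxylase subunit, at 0.34 and Loxl3, a lysyl oxidase, at -0.30. At its peak with the highest level P4ha1 stood at -0.02. Protease inhibitors and other matrix proteases stood at -0.12 over 21 peaks. Timp4 and Timp3, inhibitors of metalloproteinases and the 2 genes of that list with the smallest p-values, stood at 0.54 (SE 0.27) and -0.40 (SE 0.32). At its peak with the highest level Timp4 stood at 0.28. Other matrix receptors stood at -0.03 over 24 peaks, with the collagen receptor Ddr2 at 0.76 (SE 0.54) and the glypican Gpc1 at -0.54 (SE 0.49). Ddr2 stood at 0.22 at its peak with the highest level. Integrin adaptors stood at -0.04 over 58 peaks, with the adhesion kinase gene Ptk2b at 0.34 and the kindlin gene Fermt2 at 0.35. Genes of TGF-beta signalling, which drives matrix production, had a median of -0.10 over 36 peaks. At an unadjusted p under 0.05, 2 of the 36 were higher (5.56%, against 0.730% of all peaks) and 1 lower (2.78%, against 2.11%). Cyr61, a matricellular target gene, had 3.79 and 4.17 CPM in rmTBI, against 0.713 and 2.23 CPM in sham (log2 1.36, SE 0.50). The ligand gene Tgfb2 stood at -0.80 (SE 0.32), and at -0.60 at its peak with the highest level.

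Markers of the cells that make matrix and of nearby tissue were set beside these values, and their part in the results was not tested. All 10 cortical neuron markers had a peak, with summed levels of 1201 and 1091 CPM in rmTBI, against 876 and 842 CPM in sham, and thalamic neuron markers (9 of 10 with a peak) had 131 and 135 CPM in rmTBI, against 580 and 611 CPM in sham. Thalamic markers gave 10 of the 29 called peaks of the table, all lower in rmTBI. Of 10 meningeal and perivascular fibroblast markers other than collagens, 6 had a peak (not Dcn, Lum, Aldh1a2 and Slc6a13). Their summed levels were 22.8 and 29.5 CPM in rmTBI, against 34.7 and 39.9 CPM in sham. Endothelial markers (5 of 10) had 58.1 and 50.1 CPM in rmTBI, against 57.8 and 47.7 CPM in sham, and mural cell markers (6 of 10) had 128 and 112 CPM in rmTBI, against 129 and 122 CPM in sham. Oligodendrocyte markers (8 of 10) had 407 and 364 CPM in rmTBI, against 596 and 556 CPM in sham. Choroid plexus and ependyma markers (6 of 8, without Ttr and Folr1) had 13.0 and 13.1 CPM in rmTBI, against 44.2 and 47.2 CPM in sham. Microglial markers (7 of 10) had 54.8 and 55.5 CPM in rmTBI, against 40.4 and 49.2 CPM in sham, and astrocyte markers (7 of 10) had 965 and 943 CPM in rmTBI, against 935 and 905 CPM in sham.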

How the data were processed

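The members and gene lists were chosen with earlier results of these data known. The authors deposited whole-number read counts per peak and library, not normalized, and per the file headers a log2 value per peak with its p-value and FDR, deposited without a stated contrast. Per the submitters' processing notes STAR, DESeq2 and GRCm39 were used, without versions or roles; the sources used here name no peak caller or counter. Of 146 peaks of matched genes, 142 overlapped their RefSeq span in GRCm38.p6, so coordinates are read as GRCm38.

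Counts were tested per peak with edgeR 4.0.16 (R 4.3.3): TMM, filterByExpr, quasi-likelihood F-test on group, 2 residual degrees of freedom, Benjamini-Hochberg over 33415 peaks, called at an adjusted p under 0.05. SE is the log2 change over the root of F. TMM-scaled CPM are given as levels, and folds within a number use log2 CPM with a prior count of 2. Overlaps used bedtools 2.31.1. The test was tested on simulated data. Alternatives were the label number as a block, library size scaling, DESeq2 1.42.0, a minimum of 10 counts, no filter, each library left out, and each peak set alone.

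Genes were named by rule: called genes, the 4 genes per class with the smallest p, the gene with the highest mean CPM per class, genes in the deposited lists, the chains of collagen IV and VI, and 2 genes per related list. Some results that the rule names are not reported here. 8 rows repeat the counts of an overlapping row of their gene.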

Additional observations from a re-analysis of the deposited data

How the results depend on the processing

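Called peaks of these genes numbered 0 under DESeq2, library size scaling, a minimum of 10 counts in every library, no filter, either peak set alone and each library left out, with 10 to 25 at an unadjusted p under 0.05 and a lowest adjusted p from 0.0881 to 0.695. With the label number as a replicate block, edgeR called 28 of 142 (9 higher and 19 lower, in 14 genes), which is 19.7% where 10.6% of all peaks were called, and 45 had an unadjusted p under 0.05. Libraries that share a number deviated together (correlation 0.48 over all tested peaks), but there are only 2 such pairs and the labels do not say what a number marks, so the block is not taken as a pairing. The Adamts median of -0.48 was -0.52 with DESeq2, -0.57 with a minimum of 10 counts, -0.50 with library size scaling, -0.53 without a filter, -0.50 with the replicate block, -0.53 with rmTBI-called peaks and -0.46 with sham-called peaks. Leaving out a library gave -0.72 to -0.31 for Adamts, -0.18 to 0.15 for collagens, -0.22 to 0.066 for integrins and -0.12 to 0.13 for Mmp genes, whose median was 0.29 with sham-called peaks. The sign turned in 15 cases, and the cause was not tested. Peaks where it turned included those of Mmp16 (log2 0.37 with all 4 libraries), Lamc1 (0.31) and Itgb1 (0.27). Without a library, values ran from -0.060 to 0.61 and -0.43 to 0.15 at the Lamc1 peaks, -0.11 to 0.57 at Itgb1, -0.033 to 0.67 at the Mmp16 3′ UTR peak, -0.45 to 0.91 at the Mmp14 5′ UTR peak, -1.59 to 2.60 at the listed Mmp17 peak (-0.20 with DESeq2), -0.28 to 0.38 at the listed Mmp24 peak, -0.45 to 0.39 at Col4a1 (-0.0077 with the replicate block) and -0.33 to 0.30 at Col4a2. Some values kept their sign but moved by over 1.5-fold without rmTBI library 1: they were 0.93 at Col1a2, -2.02 at Itga9, -1.72 at Adamts8, -1.80 at the Mmp15 5′ UTR peak, -3.44 at Mmp19, -2.83 at Adamts5, -2.81 at Col24a1 and -2.41 at Itga5. Without rmTBI library 0, Mmp19 stood at -0.73, Adamts5 at -0.11, Col24a1 at -0.19 and Itga5 at -0.31. Mmp19 was -0.57 without sham library 0 and -1.94 without sham library 1, and Col6a3 was 1.98 without sham library 1. In all, 340 values of single peaks, these included, kept their sign and their side of the threshold, and 15 passed it with the replicate block alone. The peaks of these genes had a median of 245 counts over all libraries, against 636 for all peaks.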
